A study of Mus musculus with 6 samples.

Results

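The transcripts of 9 interferon-stimulated genes, Ifitm3, Ifitm2, Irf7, Trim30a, Eif2ak2, Stat2, Ifit3, Bst2 and Isg15, were followed in green fluorescent cells of the mouse hippocampus after long demyelination. The 9 genes were taken by symbol from the deposited expression table, and all 9 had a value among the 20323 genes analysed. Each of the 6 libraries came from the brain of a separate mouse of the genotype Nestin-CreERT2;Rosa26-mGFP, in which Cre is driven by the Nestin promoter, so that Nestin-expressing cells and the cells they give rise to carry GFP, and sorting with magnetic anti-GFP beads gave the cells. Every animal of both groups ate cuprizone, a copper chelator that kills oligodendrocytes, for 10 weeks and then recovered for 4 weeks. Vehicle, given to 3 animals, was saline with 0.1% bovine serum albumin, and the other 3 received neuregulin 1 beta 1 (Nrg-1β1), a ligand of ErbB receptors. The series text gives its daily dose as 60 µg per kg and the sample labels as 60 g per kg, so the unit of the dose is uncertain. For the age and sex of the animals and the time of Cre induction the labels give nothing. The comparison asks how Nrg-1β1 given in recovery alters the transcripts of these cells.

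Interferons are secreted proteins of the antiviral defence. Type I interferon binds the receptor chains IFNAR1 and IFNAR2, whose kinases JAK1 and TYK2 phosphorylate STAT proteins, STAT2 among them. With IRF9 these form a complex that binds the interferon-stimulated response element (ISRE) in the promoters of its target genes. Type II interferon acts through IFNGR1 and IFNGR2, and its response element is the gamma-activated sequence (GAS). In the brain, microglia and endothelial cells are well known to carry this response, and neural stem cells are known to keep a part of the set active without infection.

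The promoter sequences are shown because the ISRE is the element that the 9 genes are known for, and because genes that hold it lay on both sides of the comparison below. All 9 genes matched the RefSeq promoter table of GRCm38.p6 by gene number, with 10 windows of 300 bases in all, 250 before and 50 from the start base on, Trim30a having a second start. The ISRE core was searched as GAAA, any 2 bases and GAAA again, and the GAS core as TTC, any 3 bases and GAA, on both strands. The ISRE core was found in 8 of the 9 genes and in 3.44% of all 32851 windows, the GAS core in 3 of the 9 and in 8.30%. The printed stretches run from position -170 to 30, counted from 1 at the start base, 5′ to 3′ along the gene, with matches to the ISRE core in capitals. No label names the build behind the deposited values, so the coordinates belong to the RefSeq table only.
Ifitm3, chr7:141010715-141010914, minus strand: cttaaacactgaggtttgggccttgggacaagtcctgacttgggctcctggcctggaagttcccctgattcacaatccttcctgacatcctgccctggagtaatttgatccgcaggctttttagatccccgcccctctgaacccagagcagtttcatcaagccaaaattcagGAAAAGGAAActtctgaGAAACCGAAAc
Ifitm2, chr7:140955932-140956131, minus strand: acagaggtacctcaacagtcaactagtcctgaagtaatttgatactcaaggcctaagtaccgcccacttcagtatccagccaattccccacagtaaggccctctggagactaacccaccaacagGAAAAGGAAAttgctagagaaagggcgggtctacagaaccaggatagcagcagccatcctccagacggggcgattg
Irf7, chr7:141266395-141266594, minus strand: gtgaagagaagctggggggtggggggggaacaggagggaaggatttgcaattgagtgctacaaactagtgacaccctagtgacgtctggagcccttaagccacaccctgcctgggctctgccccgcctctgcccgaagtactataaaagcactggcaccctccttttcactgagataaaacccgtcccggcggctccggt
Ifit3, chr19:34583359-34583558, plus strand: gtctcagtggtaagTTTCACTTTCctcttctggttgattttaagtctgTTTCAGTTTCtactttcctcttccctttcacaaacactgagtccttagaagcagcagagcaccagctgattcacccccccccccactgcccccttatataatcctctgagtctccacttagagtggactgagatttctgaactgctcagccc
Isg15, chr4:156200789-156200988, minus strand: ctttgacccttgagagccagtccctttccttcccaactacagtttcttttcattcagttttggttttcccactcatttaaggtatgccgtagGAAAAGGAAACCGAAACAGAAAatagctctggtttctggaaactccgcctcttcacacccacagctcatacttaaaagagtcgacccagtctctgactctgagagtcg

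The Ifitm3 window held 2 ISRE cores just after the start base, at positions 3 to 12 and 20 to 29, the second overlapping a GAS core at 14 to 22. In Ifitm2 a core with the same letters as the first of Ifitm3 lay at -46 to -37. Isg15 held 3 overlapping cores between -78 and -57, and Ifit3 held 2, at -156 to -147 and -122 to -113, both on the opposite strand. Bst2 held 2 overlapping cores, the first of which shared bases with a GAS core, Eif2ak2, Stat2 and each Trim30a window held 1, and the 300 bases of Irf7 held none. The Ifit3 window shared an identical run of 169 bases with that of its near copy Ifit3b. A match describes the letters only.

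Read depth differed strongly between the libraries and partly with the group, and it limits every value below. Whole reads recovered from the deposited values summed to 72953034, 1075813 and 47076006 in vehicle libraries 1 to 3 and to 567073, 662909 and 1327003 in Nrg-1β1 libraries 1 to 3. A single read was worth 5.17 normalized counts in Nrg-1β1 library 1 and 0.0605 in vehicle library 1. Of the 27 values of the 9 genes in the Nrg-1β1 libraries, 23 rested on fewer than 10 reads, and the highest rested on 28. Sex-linked transcripts differed among the vehicle animals and between the groups. The log2 value of Ddx3y, a gene of the Y chromosome, was 3.16, 2.83 and 6.96 in vehicle against 7.27, 6.86 and 5.63. That of Xist, from the inactive X chromosome, was 7.65, 9.39 and 6.07 against 3.84, 4.27 and 2.82, higher in all vehicle libraries. Vehicle library 3 held both transcripts, with 1994 reads of Ddx3y and 1045 of Xist, and the reason was not tested. The part of these sex-linked differences in the differences below was not tested either. The fit below without vehicle libraries 1 and 2 cannot test it, since vehicle library 3 had a higher Xist value than every Nrg-1β1 library. The labelled cell type is neural progenitor cells. Its marker Sox2 had reads in every library, from 85 to 6024, and the myelin gene Mbp had at least 17659 reads in each of the 6. Nes, which encodes nestin, had log2 values of 6.58, 6.23 and 7.89 in vehicle and 5.13, 5.64 and 4.97 in Nrg-1β1, the latter from 6, 9 and 9 reads. The groups did not overlap, and the difference of -1.65 ± 0.42 (SE) did not pass (adjusted p = 0.0582, limma).

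Of the 9 genes, Ifitm3 fell in the Nrg-1β1 libraries and the other 8 did not pass the threshold, an adjusted p of 0.05 over all 20323 genes (limma). In the same test 1.06% of all genes passed, 0.625% lower and 0.438% higher, that is 127 and 89 genes. This split differed with the scaling and with the test. After centring on library medians 164 of 499 called genes were lower, and after quantile normalization 53 of 65. In limma-voom with the deposited scaling it was 3 of 22. The difference was negative for 8 genes and positive for Ifit3, with a median of -1.29 on the log2 scale, where the median over all genes was 0.03. The libraries of the 2 groups did not overlap for 7 of the 9 genes, with Nrg-1β1 below vehicle for 6 and above it for Ifit3. Over all genes the groups did not overlap in 17.7%, with Nrg-1β1 below vehicle in 10.4% and above it in 7.37%. The genes were chosen with results of these libraries known, so these shares describe them and are no test. In bulk RNA, fewer cells of a type and less RNA per cell cannot be told apart.

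**Figure D1:**
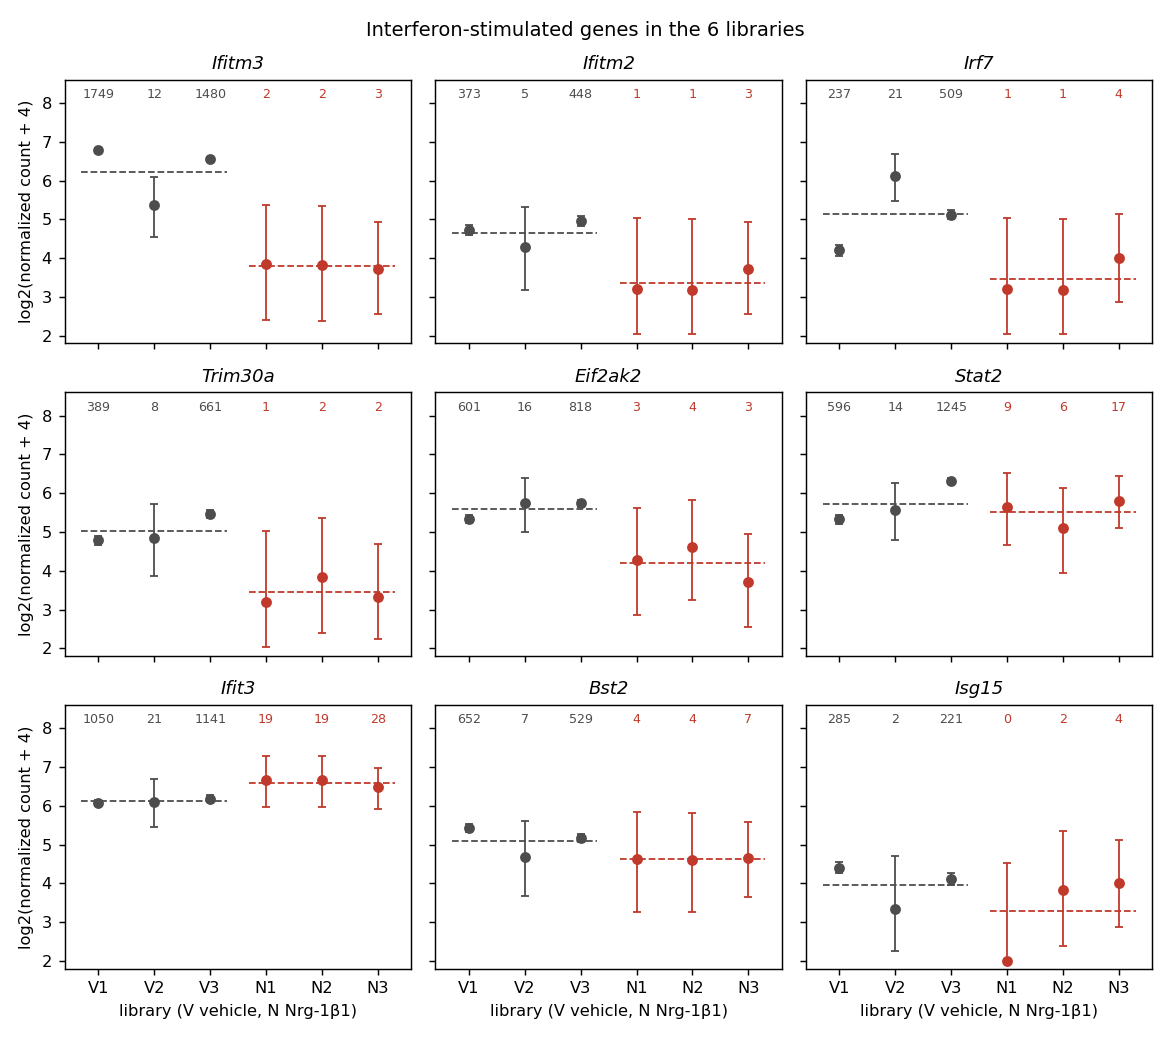
Deposited value, log2(normalized count + 4), of each gene in vehicle (V1 to V3, grey) and Nrg-1β1 (N1 to N3, red) libraries, with 95% exact Poisson counting intervals as bars, the group means as dashed lines and the recovered reads above each point. The Nrg-1β1 points of Ifitm3, from 3.71 to 3.84, lie below all vehicle points, and those of Ifit3, from 6.48 to 6.67, lie above them.

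Among the genes of signalling and transcription, Irf7 and Stat2 differed in their pattern. Irf7 encodes the inducible transcription factor that amplifies type I interferon production. Its log2 value was 4.20, 6.10 and 5.12 in vehicle libraries 1 to 3 and 3.20, 3.19 and 4.01 in Nrg-1β1 libraries 1 to 3, from 237, 21 and 509 reads against 1, 1 and 4. The shallow vehicle library 2 was the highest of the 6, and the groups did not overlap, although vehicle library 1 lay only just above Nrg-1β1 library 3. The difference was -1.68 ± 0.56 (SE, n = 3 each) and did not pass (adjusted p = 0.172, limma). Stat2 encodes a transcription factor of the type I interferon complex. It stood at 5.32, 5.56 and 6.31 in vehicle and at 5.66, 5.11 and 5.80 in Nrg-1β1, with 9, 6 and 17 reads in the latter. The groups overlapped, vehicle library 3 being the highest, and the difference was -0.21 ± 0.40 (SE, adjusted p = 0.827, limma).

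Of the antiviral membrane proteins, only Ifitm3 passed the test. Ifitm3 encodes a small membrane protein that blocks the fusion of viruses with endosomes. Its log2 value was 6.78, 5.36 and 6.55 in vehicle libraries 1 to 3 and 3.84, 3.83 and 3.71 in the Nrg-1β1 libraries. These values came from 1749, 12 and 1480 reads against 2, 2 and 3. All vehicle libraries were higher, with vehicle library 2 between the deep vehicle libraries and the Nrg-1β1 group. The means were 6.23 ± 0.76 and 3.79 ± 0.07 (SD, n = 3 each), and they differed by -2.43 ± 0.47 (SE, adjusted p = 0.0165, limma). The Nrg-1β1 values sit at counts so low that their close agreement says little on the spread between animals: the 95% counting interval of library 3, at 9.12 normalized counts, ran from 1.88 to 26.6.

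The call of Ifitm3 ended when any single library was left out, with adjusted p from 0.116 to 0.306 (limma), and once depth class (deep or shallow library) entered the fit, where it was -1.56 ± 0.37 (SE, adjusted p = 0.431, limma). Both deep libraries are vehicle, so that difference is vehicle library 2 alone against the Nrg-1β1 mean, and 0 of all 20323 genes were called in that fit. It also ended without vehicle libraries 1 and 2, where the Ddx3y level was low, at -2.75 ± 0.39 (SE, adjusted p = 0.192, limma), which leaves vehicle library 3 alone in its group and assumes that it varies as the Nrg-1β1 libraries do. With quantile normalization it was -2.38 (adjusted p = 0.0537, limma), and in limma-voom on the recovered reads -2.88 (adjusted p = 0.0645), or -2.89 with library totals (adjusted p = 0.0911).

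Ifitm2, the close relative of Ifitm3 on the same chromosome, had log2 values of 4.73, 4.28 and 4.96 in vehicle and 3.20, 3.19 and 3.71 in Nrg-1β1, the latter from 1, 1 and 3 reads. The groups did not overlap, and the difference of -1.29 ± 0.52 (SE) did not pass (adjusted p = 0.271, limma). Reads of the IFITM genes, which resemble each other, could have been split between them in the authors' counting. Bst2 encodes tetherin, which holds budding viruses at the cell surface. It stood at 5.44, 4.68 and 5.17 in vehicle and at 4.62, 4.61 and 4.66 in Nrg-1β1. The groups did not overlap, but vehicle library 2 exceeded the highest Nrg-1β1 library by less than the counting interval of either, and the difference was -0.47 ± 0.45 (SE, adjusted p = 0.709, limma).

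Of the cytoplasmic effectors, Eif2ak2 and Ifit3 lay on opposite sides. Eif2ak2 encodes PKR, a kinase that is switched on by double-stranded RNA and then shuts down translation. Its log2 value was 5.34, 5.74 and 5.74 in vehicle and 4.29, 4.61 and 3.71 in Nrg-1β1, from 601, 16 and 818 reads against 3, 4 and 3. All vehicle libraries, the shallow one included, were higher, by -1.40 ± 0.45 as Nrg-1β1 minus vehicle (SE), without passing (adjusted p = 0.149, limma). Ifit3 encodes a protein with tetratricopeptide repeats that works with IFIT1 against foreign RNA. It stood at 6.08, 6.10 and 6.19 in vehicle and at 6.67, 6.66 and 6.48 in Nrg-1β1, from 1050, 21 and 1141 reads against 19, 19 and 28. It had the most reads of the 9 genes in every Nrg-1β1 library, and all Nrg-1β1 libraries were higher. The difference of 0.48 ± 0.32 (SE) did not pass (adjusted p = 0.566, limma). Its near copy Ifit3b differed the same way, by 0.92 ± 0.35 (SE, adjusted p = 0.237, limma), with 837, 25 and 649 reads against 24, 20 and 30, and reads could have been split between these copies in the authors' counting.

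The remaining genes act in ubiquitin-like and ubiquitin pathways. Trim30a encodes a TRIM family protein that in mice dampens Toll-like receptor signalling. Its log2 value was 4.78, 4.84 and 5.46 in vehicle and 3.20, 3.83 and 3.33 in Nrg-1β1, the latter from 1, 2 and 2 reads. The groups did not overlap, and the difference was -1.58 ± 0.51 (SE, adjusted p = 0.149, limma). Isg15 encodes a ubiquitin-like protein that is attached to other proteins after interferon exposure. It stood at 4.41, 3.35 and 4.12 in vehicle and at 2.00, 3.83 and 4.01 in Nrg-1β1. Nrg-1β1 library 1 had 0 reads, for which the 95% exact counting interval reaches 19.1 normalized counts, and the groups overlapped, with shallow vehicle library 2 at 2 reads below 2 of the Nrg-1β1 libraries. The difference was -0.68 ± 0.61 (SE, adjusted p = 0.709, limma).

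Vehicle library 2 was sequenced about as shallowly as the Nrg-1β1 libraries and gives a comparison at like depth, though with a single vehicle animal. Against the pooled Nrg-1β1 reads, its level of Irf7 was 7.76 times higher (95% exact counting interval 3.03 to 23.5), from 21 against 6 reads. Ifitm3 was 3.80 times higher (1.38 to 11.4) and Eif2ak2 3.55 times (1.51 to 8.75). These intervals hold counting error only and say nothing of the spread between animals. For Trim30a the ratio was 3.55 (1.02 to 13.8) and for Ifitm2 2.22 (0.510 to 9.64). Stat2 had a ratio of 0.970 (0.478 to 1.87), Bst2 of 1.04 (0.357 to 2.70), Ifit3 of 0.706 (0.410 to 1.17) and Isg15 of 0.739 (0.0730 to 4.14). The intervals of Ifitm2, Stat2, Bst2, Ifit3 and Isg15 held 1, and those of Irf7 and Ifitm3 overlapped each other. Since this comparison changes the animal as well as the depth, the effect of depth and that of the animal cannot be told apart.

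The other genes of the pathway were read from a list ordered by role. Of 97 listed genes 87 had a value, and 0 rose, 0 fell and 87 did not pass (limma). At an unadjusted p of 0.05, 25 of the 87 passed, where 2644 of all 20323 genes (13%) did, and limma-voom on the recovered reads also called 0 of them. In the values as deposited the difference was negative for 70 and positive for 17, with a median of -0.52. Over all 20323 genes it was negative for 9720 and positive for 10603. Nrg-1β1 lay below vehicle without overlap for 26 and above it for 4, beside the 10.4% and 7.37% of all genes given above.

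**Figure D2:**
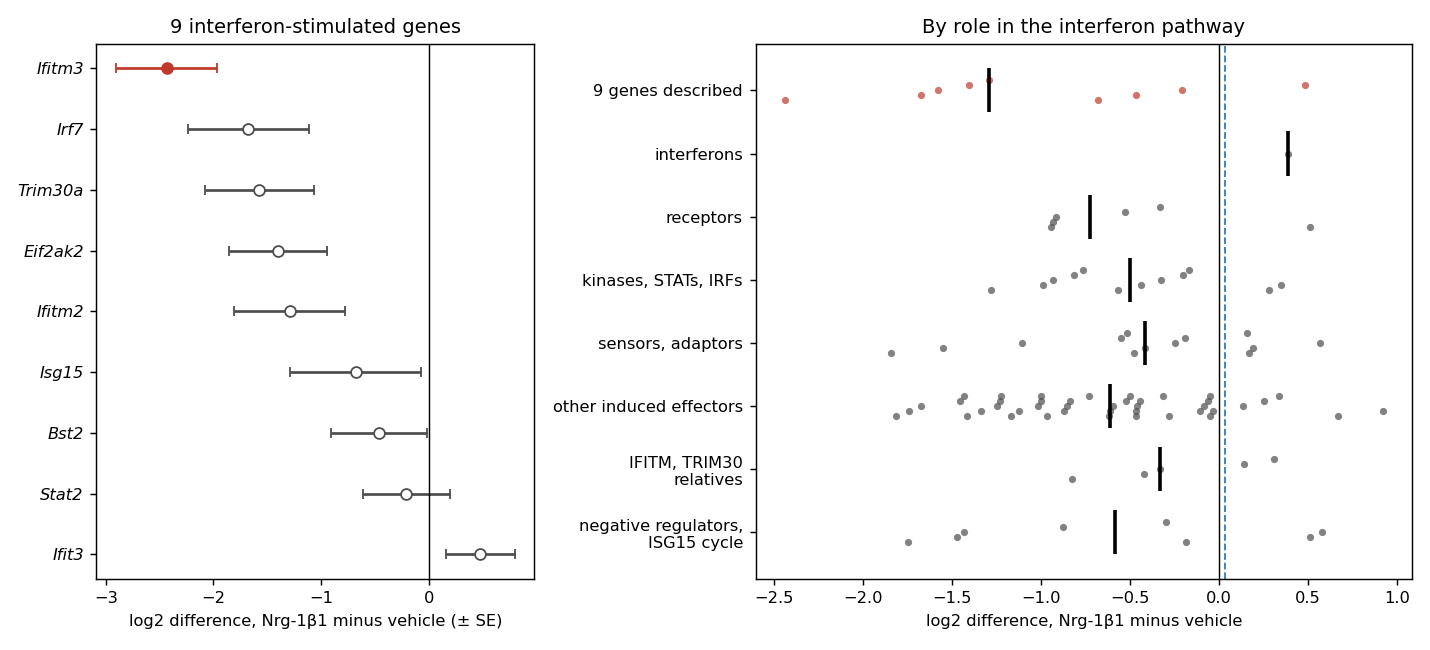
Left, log2 difference (Nrg-1β1 minus vehicle) of the 9 genes with its standard error, filled where the adjusted p was under 0.05. Right, the differences of the 9 genes (red) and of 87 other pathway genes (grey) by role, with the median of each role as a black bar and the median over all genes, 0.03, as a dashed blue line; the medians of the receptor, signalling, sensor and effector groups lie between -0.72 and -0.41.

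Interferon genes themselves were nearly silent in the table. Of 8 listed, 7 were blank in every library, and Ifna4 had 1 read in vehicle library 1, 1 in Nrg-1β1 library 2 and 0 in the others. The receptor genes had a median of -0.72 over 6. Ifngr1, a chain of the type II receptor, differed by -0.92 ± 0.30 (SE, adjusted p = 0.155, limma) and Il10rb, which the type III receptor shares with that of interleukin 10, by -0.94 ± 0.35 (adjusted p = 0.220, limma). Ifngr1 had 2643, 46 and 2632 vehicle reads against 17, 16 and 23, so the groups did not overlap for this better covered gene.

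Among 12 kinases, STATs and IRFs the median was -0.50. The members with the smallest p were the transcription factor genes Irf1, at -1.28 ± 0.45 (SE, adjusted p = 0.191, limma), and Irf5, at -0.99 ± 0.35 (adjusted p = 0.211, limma). The 13 nucleic acid sensors and adaptors had a median of -0.41. In it Tlr7, an endosomal sensor of single-stranded RNA, differed by -1.84 ± 0.49 (SE, adjusted p = 0.0710, limma), with 979, 29 and 1128 reads in vehicle against 1, 5 and 10. Sting1, the adaptor downstream of the DNA sensor cGAS, differed by -1.55 ± 0.44 (SE, adjusted p = 0.0925, limma), with 1574, 22 and 970 reads against 2, 7 and 9. For both genes all vehicle libraries were higher.

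The 42 other induced effectors had a median of -0.61, with 37 negative and 5 positive. Those with the smallest p were Ifi204 and Ifi203, mouse genes of the interferon-inducible HIN-200 family, whose members resemble each other, so that reads could have been split. Ifi204 differed by -1.74 ± 0.50 (SE, adjusted p = 0.101, limma), with 0, 0 and 1 reads in Nrg-1β1, and Ifi203 by -1.46 ± 0.44 (adjusted p = 0.117, limma), with 86, 2 and 167 vehicle reads against 0 in each Nrg-1β1 library. Of the IFITM and TRIM30 relatives 5 of 8 had a value, Ifitm1 (-0.83) and Ifitm7 (-0.33) having the smallest p (adjusted p = 0.371 and 0.717, limma). Both had 0 reads in every Nrg-1β1 library. Vehicle reads were 45, 1 and 58 for Ifitm1 and 48, 0 and 10 for Ifitm7, so shallow vehicle library 2 was near 0 too. The sign of Ifitm7 turned in limma-voom. In the list of negative regulators and the ISG15 cycle, Ube2l6, which encodes the enzyme that passes ISG15 on to its targets, differed by -1.75 ± 0.51 (SE, adjusted p = 0.103, limma) and Socs3, a feedback inhibitor of JAK signalling, by -1.47 ± 0.45 (adjusted p = 0.126, limma). Vehicle reads of Ube2l6 were 676, 12 and 598, against 3, 2 and 1.

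Markers of other cell types also differed between the groups, in both directions. The summed level of the 9 genes was 359, 327 and 426 normalized counts in vehicle libraries 1 to 3 and 207, 209 and 216 in the Nrg-1β1 libraries. The 10 homeostatic microglia genes summed to 5956 to 8195 in vehicle and to 2185 to 2794 in Nrg-1β1, and 7 of them fell (limma), among them P2ry12, Cx3cr1, Siglech, Fcrls, Csf1r and Itgam. The 10 endothelial genes summed to 617 to 2895 and to 108 to 173, and 7 fell, Cldn5, Pecam1, Flt1, Ly6a, Ly6c1, Slco1a4 and Tek. In limma-voom on the recovered reads 0 genes of either list passed. No gene of these 2 lists was at 0 in all Nrg-1β1 libraries, Cldn5 keeping 2, 4 and 16 reads and P2ry12 23, 40 and 30. The part of microglia and endothelial cells in the differences of the 9 genes was not tested.

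Of the 6 border-associated macrophage genes 0 fell (81.1 to 137 against 30.4 to 62.0). Of 9 peripheral leukocyte genes 0 fell (98.0 to 127 against 18.2 to 66.4). Among the latter, S100a8 and S100a9 had 0 reads in every Nrg-1β1 library, and also in shallow vehicle library 2. Ptprc gave 1047, 31 and 1117 of the 1701, 41 and 1621 vehicle reads of the leukocyte list. In that list the difference was negative for 7 genes and positive for 2, Ms4a1 (0.85) and Ccr2 (0.46). In each of these 2 lists, 2 genes had an unadjusted p under 0.05 (limma). They were Mrc1 and Pf4 in the macrophage list and Ptprc and Ly6c2 in the leukocyte list, and limma-voom called 0. Of the 8 pericyte and smooth muscle genes 1 fell, of the 5 choroid plexus genes 3 and of the 4 erythroid genes 4 (limma), where limma-voom called 0, 1 and 0. Their summed levels were lower in all Nrg-1β1 libraries too. They were 191 to 489 against 71.5 to 122 for pericyte and smooth muscle genes. For choroid plexus genes they were 1494 to 4808 against 128 to 197, and for erythroid genes 3291 to 9484 against 438 to 1994. The summed levels of the 8 astrocyte genes (22521 to 34022 against 38163 to 42674) and of the 6 neuron genes (1658 to 2784 against 3485 to 5358) were higher in all Nrg-1β1 libraries. In either list 0 genes passed the threshold. An unadjusted p under 0.05 was found for 4 of the 8 and 3 of the 6 (limma), where 13% of all genes had one. Of 8 stem cell and progenitor genes 1 rose, Sox1 (limma, and 0 in limma-voom). Differences were negative for 5 of the 8 and positive for 3, with a median of -0.67. An unadjusted p under 0.05 was found for 5 genes (limma), among them Vim (-1.41), Prom1 (-1.58) and, in the other direction, Hopx (0.76). For Vim, Prom1 and Hopx the groups overlapped. The summed level of the 8 genes was higher in all Nrg-1β1 libraries (1317 to 1670 against 1792.5 to 2096.5). In the lists of 7 neuroblast and 9 oligodendrocyte lineage genes 0 passed, with 0 and 3 under an unadjusted p of 0.05, and limma-voom called 0 in the astrocyte, neuron, neuroblast and oligodendrocyte lists.

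**Figure D3:**
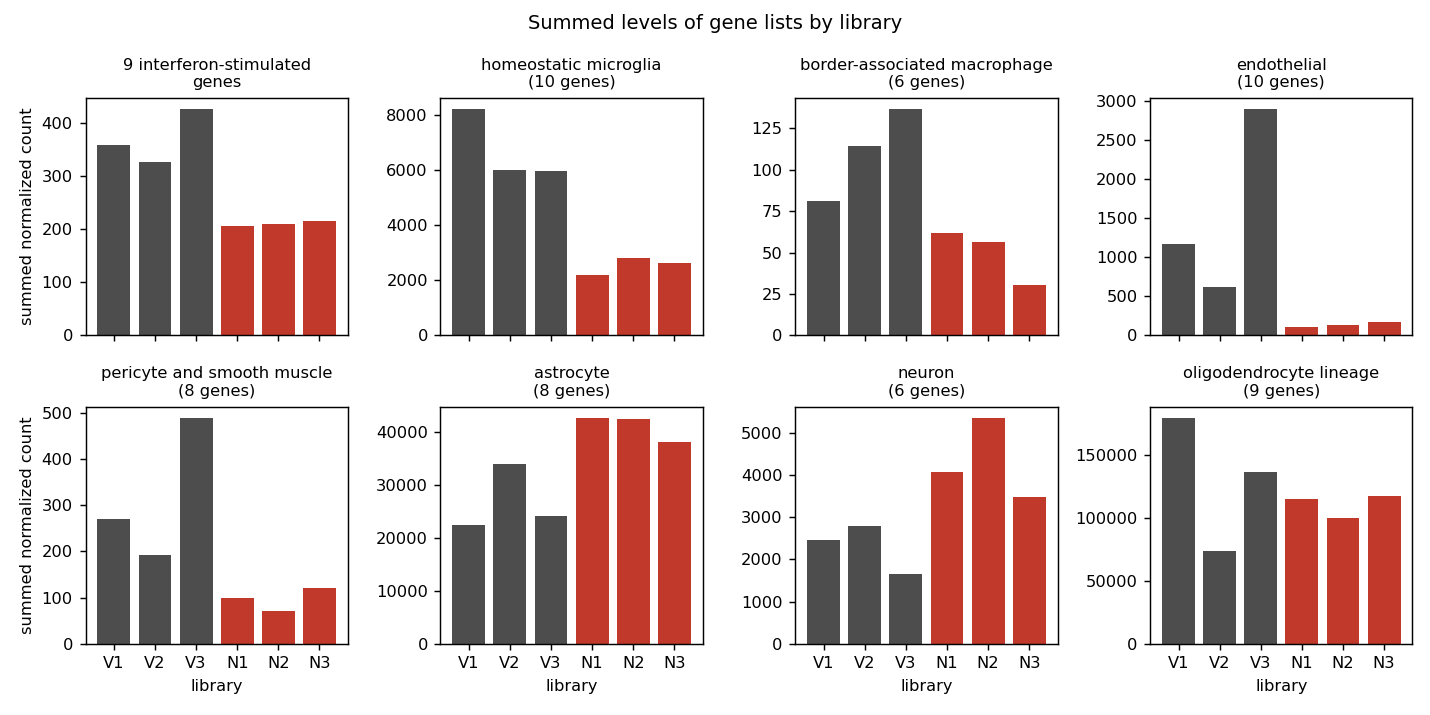
Summed normalized counts of the 9 interferon-stimulated genes and of 7 marker lists in vehicle (V1 to V3, grey) and Nrg-1β1 (N1 to N3, red) libraries, 1 bar per library, each panel with its own axis from 0. The sum of the 9 genes, the microglia sum and the endothelial sum are lower in all 3 Nrg-1β1 libraries, and the astrocyte and neuron sums are higher.

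The genes whose log2 values over the 6 libraries were most like those of Ifitm3, among 10157 genes with a mean of at least the median, were Slc66a2 (Pearson r = 0.996), Tmeff2 (0.989), H2-T23 (0.987), Ly6e (0.984) and Tm9sf2 (0.982). The 6 points fall into the 2 groups, so r mostly restates the group difference, and the libraries of a group share their depth class in part. Ly6e was called lower in Nrg-1β1, at -1.50 (adjusted p = 0.0245, limma). The other 4 did not pass, with differences from -1.51 for H2-T23 to -0.85 for Tmeff2.

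The plot of the differences under each processing alternative shows how far these results held.

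**Figure D4:**
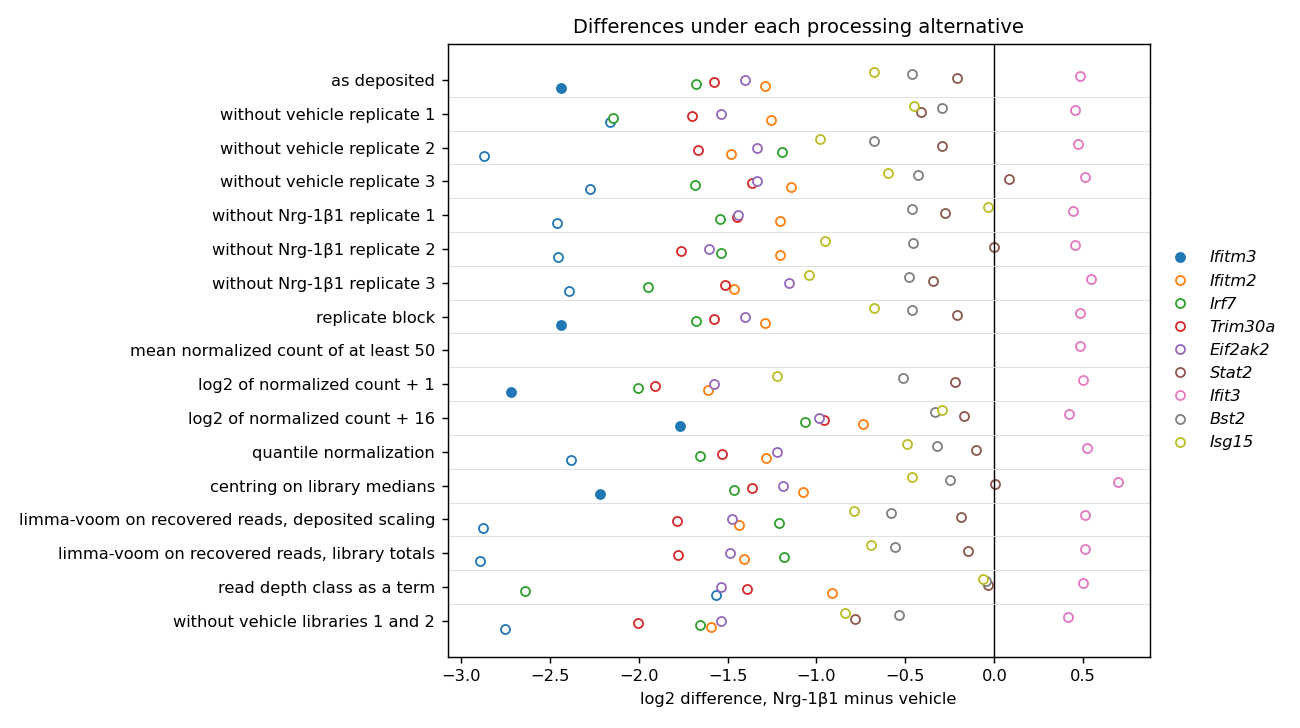
Log2 difference (Nrg-1β1 minus vehicle) of the 9 genes as deposited and under 16 alternatives, filled where the adjusted p was under 0.05. Ifitm3 lies between -2.89 and -1.56 and is filled in 4 of its 15 alternatives, Ifit3 lies between 0.41 and 0.69 in all 16, and Stat2 crosses 0; under the filter at a mean of 50 normalized counts only Ifit3 could be fitted.

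Ifitm3, Ifitm2, Irf7, Trim30a, Eif2ak2, Bst2 and Isg15 had a negative difference in all 15 alternatives in which they could be fitted, and Ifit3 had a positive one in all 16. For Isg15 the smallest was -0.04, without Nrg-1β1 library 1, and for Bst2 -0.05. Centring on library medians moved the median over all genes to 0.25, and the differences were then 0.69 for Ifit3 and -2.22 for Ifitm3.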

How the data were processed

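RNA of sorted GFP-positive hippocampal cells was sequenced in 3 vehicle and 3 Nrg-1β1 animals. Trimmomatic and Bowtie2 are named in the submitters' processing notes, without versions. For the read counter, genome build, strand setting, scaling and gene filter, the sources used here give nothing. The authors deposited log2 values. These were read, from the values, as log2(normalized count + 4): each library's lowest value is 2, and after 4 was taken off every value was a whole multiple of 1 step per library, within 0.02 reads for 100% of values. Of 27102 genes, 6779 were blank in all libraries and 20323 were analysed. Of 1917 without a symbol, 980 were named by gene number from RefSeq (GRCm38.p6).

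The groups were compared with limma 3.58.1 (R 4.3.3), with an intensity trend, group as the only term and Benjamini-Hochberg adjustment over all genes at 0.05. Vehicle was subtracted from Nrg-1β1 on this log2(normalized count + 4) scale, where changes of thinly covered genes come out too small. Intervals are 95% and exact (Poisson for a level, Clopper-Pearson on pooled reads for a ratio). They cover counting error only and hold no term for the spread between animals. Reads without molecular identifiers are not independent molecules, so the intervals may be too narrow even for counting error. Antisense and overlapping genes could not be told apart. The members, the pathway list, the marker lists and the tests were chosen with earlier results of these data known. The text names all 9 members, in each role of the pathway the 2 genes with the smallest p, the 5 genes most like Ifitm3 and the sex-linked check genes. Of the marker genes that the naming rule takes (those called and the 2 with the highest mean in each list), only those beside a result are printed, and some are not reported here. Alternatives left out each library, changed the added count (1 or 16), the scaling, the filter or the test, or added a replicate block or depth class.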

Additional observations from a re-analysis of the deposited data

How the results depend on the processing

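The count of 1 called gene among the 9, Ifitm3, held with the replicate block, with an added count of 1 or 16 and with centring on library medians. It was 0 with quantile normalization, in limma-voom with either scaling, with depth class as a term and without vehicle libraries 1 and 2, and from 0 to 0 when single libraries were left out; under the filter at a mean of 50 normalized counts it was 0, where 1 of the 9 could be tested. Among other pathway genes the count of 0 became 3 with the replicate block, Tlr7, Sting1 and Socs3, and was 0 otherwise. The labels state no pairing, and same-numbered libraries did not deviate together (r = -0.22, -0.02 and -0.26). With 3 libraries per group, most of them shallow, these values cannot decide whether the numbers are a pairing. Over all genes the block took the calls from 216 to 627. Calls over all genes were 56 without vehicle library 1, 4 without vehicle library 3, 0 without any other library or with depth class, 49 with the filter, 129 and 168 with an added count of 1 and 16, 65 with quantile normalization (53 lower), 499 with centring (164 of them lower, against 127 of 216 as deposited), and 22 (3 lower) and 14 (1 lower) in limma-voom with deposited scaling and library totals, where the median over all genes was 0.25 and 0.27.

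Signs turned for 6 genes, none of them called, and the cause was not tested. Stat2 was 0.0060 with centring and ran from -0.41 to 0.0806 when single libraries were left out. Ifitm7 was 0.63 and 0.53 in limma-voom with deposited scaling and library totals. Ifna4 ran from -0.0072 to 0.59 over single libraries left out. Ifit1 was 1.00 with depth class. Ifit2 was -0.081 without vehicle libraries 1 and 2 and ran from -0.069 to 0.82 over single libraries. Ifitm10 was 0.051 in limma-voom with library totals and ran from -0.80 to 0.062 over single libraries. Depth is a limit: with 0 to 28 reads for each of the 9 genes in the Nrg-1β1 libraries, a missed threshold does not show equal levels.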

Other observations

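Genes of the IFIT and IFITM families were set beside Ifit3 and Ifitm3 after their values were seen. In the IFIT family Ifit3b (0.92), Ifit3 (0.48) and Ifit2 (0.34) had positive differences and Ifit1 a negative one (-0.47), and none passed (limma). Vehicle reads of Ifit2 were 530, 9 and 798, against 16, 10 and 7, and those of Ifit1 719, 2 and 692, against 3, 3 and 6. Pooled over libraries, Ifit3b was 2.28 times higher in Nrg-1β1 than in vehicle (95% counting interval 1.78 to 2.87). Against vehicle library 2 alone it was 1.33 times higher (0.838 to 2.19). Vehicle libraries 1 and 3 gave 837 and 649 of the 1511 pooled vehicle reads. Both intervals hold counting error only and say nothing of the spread between animals. In the IFITM family all 5 measured genes had negative differences as deposited, Ifitm3 (-2.43), Ifitm2 (-1.29), Ifitm1 (-0.83), Ifitm10 (-0.42) and Ifitm7 (-0.33). The signs of Ifitm10 and Ifitm7 turned in limma-voom with library totals. Ifitm1 and Ifitm7 had 0 reads in every Nrg-1β1 library, where a single read is worth 3.04 to 5.17 normalized counts. A library with 0 reads sits at the lowest value, 2, so for these genes the negative sign says little. Whether the 2 families differ was not tested.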
